A study of Mus musculus with 12 samples.

Results

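The 10 genes described here encode proteins of the extracellular matrix other than collagens, and they were picked by name as 2 types of 5. Fn1, Vcan, Thbs1, Tgfbi and Ecm1 are matrix genes that myeloid cells can make themselves, whereas Sparc, Postn, Lum, Dcn and Bgn are typical of stromal cells such as fibroblasts. The rule itself used no measured value, although earlier results of these data were known when it was set. The deposited table lists 55414 gene IDs, of which 14310 passed the filter on low counts, and all 10 genes were among those tested. Macrophages were isolated from the calf muscle of C57BL6J wild type males, aged 8 to 12 weeks, after hind-limb ischemia, an injury made by ligating the femoral artery and removing it with its side branches. The macrophages were t-CD45+ CD11b+ F4/80+ CD64+ cells, in which t-CD45+ covers circulating as well as infiltrated leukocytes. The paper's abstract and results give this population for the RNA sequencing. Its methods section on cell isolation names the sort gate only for the other assays. Cells were taken 1, 2, 4 or 7 days after the injury (dpi, days post injury), and RNA-seq gave 3 libraries at each time point and 12 in all. Every group had been made ischemic, so each comparison is between days after injury, and uninjured muscle was not analysed here. The sources do not say whether a library came from 1 mouse or several, so the P values measure the spread between these libraries, which may be partly technical.

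After muscle injury, a provisional matrix rich in fibronectin and versican is laid down first, and infiltrating monocytes and macrophages are known to contribute to it. Later, fibroblasts and fibro-adipogenic progenitors deposit a collagen matrix, whose fibrils are organised by small leucine-rich proteoglycans (decorin, lumican and biglycan) and by matricellular proteins such as periostin and SPARC. Matricellular proteins, among them thrombospondin-1, are secreted into the matrix but act mainly on cells and growth factors rather than as scaffold.

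The libraries held between 19528316 and 33599472 counts. One gene without a symbol (ENSMUSG00000119584) took from 52.9% to 55.7% of the counts of a library at 1 dpi, from 40.3% to 49.7% at 2 and 4 dpi and from 14.8% to 30.1% at 7 dpi. Its share moved with the comparison from 1 to 7 dpi, and so did the scaling factors defined next, from between 0.652 and 0.725 to between 1.35 and 1.70, while without that gene all 10 genes described here kept their calls from 1 to 7 dpi. Levels are given as CPM (a gene's share of the counts of a library, scaled to 1000000 counts) on library sizes scaled by TMM, edgeR's correction for the composition of a library, and a change is called where edgeR's quasi-likelihood test gave an adjusted P (false discovery rate, over all genes tested) under 0.05 with an absolute log2 fold change (log2FC) above 1. All 7 macrophage markers (Adgre1, Fcgr1, Itgam, Csf1r, Cd68, Mertk and Ptprc) were detected in every library and summed to between 2349 and 3603 CPM. They did not move as one, since from 1 to 7 dpi Itgam (CD11b, mean 180 to 35.8 CPM) and Fcgr1 (CD64, 433 to 140 CPM) fell while Adgre1 (F4/80, 285 to 668 CPM), Csf1r and Mertk rose. Markers of T cells summed to at most 0.439 CPM those of B cells to at most 1.36 CPM, and those of neutrophils to between 16.7 and 64.2 CPM at 1 dpi and at most 0.17 CPM at 7 dpi.

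The stretches of DNA in front of the genes are shown for 4 members, as each type moved in 1 direction from 1 to 7 dpi. RefSeq start sites of the GRCm38.p6 build matched 6 of the 10 genes with 7 windows of 250 bases upstream of a start. No window was matched for Fn1, Thbs1, Lum and Dcn. The 4 windows printed were picked after the matches had been seen, to show for each type 1 window with a TATA box and 1 with 2 or more GC boxes. Each window reads 5′ to 3′ towards the start site, and capitals mark matches to 4 motifs on either strand. The first was GAGGAA, a core of sites for PU.1, a factor that specifies myeloid cells. The second was TGACTCA, the site of AP-1, a factor that responds to stress and cytokines. The remaining motifs stand near start sites in general, namely TATAAA for the TATA box, and for the GC box the letters GGGCGG, which may run together where boxes adjoin or overlap. Ecm1 lies on the minus strand at chr3:95739570-95739819, Vcan on the minus strand at chr13:89742513-89742762, the second start of Postn on the plus strand at chr3:54360857-54361106 and Bgn on the plus strand at chrX:73483351-73483600.
Ecm1: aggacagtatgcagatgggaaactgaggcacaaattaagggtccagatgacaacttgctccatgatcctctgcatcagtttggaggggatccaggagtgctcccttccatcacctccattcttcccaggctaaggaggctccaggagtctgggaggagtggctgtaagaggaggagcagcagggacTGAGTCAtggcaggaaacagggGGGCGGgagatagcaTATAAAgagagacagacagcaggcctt
Vcan: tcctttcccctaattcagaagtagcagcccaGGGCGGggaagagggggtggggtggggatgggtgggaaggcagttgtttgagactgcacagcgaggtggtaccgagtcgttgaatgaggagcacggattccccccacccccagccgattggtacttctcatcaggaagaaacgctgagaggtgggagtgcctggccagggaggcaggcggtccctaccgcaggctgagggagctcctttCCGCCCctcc
Postn: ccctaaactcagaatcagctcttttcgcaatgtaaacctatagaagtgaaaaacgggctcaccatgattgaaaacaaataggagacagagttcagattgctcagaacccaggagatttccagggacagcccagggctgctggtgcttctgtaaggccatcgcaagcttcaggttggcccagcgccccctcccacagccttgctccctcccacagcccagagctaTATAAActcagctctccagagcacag
Bgn: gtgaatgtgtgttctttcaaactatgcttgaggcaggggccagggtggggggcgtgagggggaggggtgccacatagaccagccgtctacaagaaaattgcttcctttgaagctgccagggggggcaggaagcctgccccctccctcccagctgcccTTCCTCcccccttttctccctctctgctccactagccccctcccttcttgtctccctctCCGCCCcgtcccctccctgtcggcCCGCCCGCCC
The Ecm1 window held 1 AP-1 match 58 bases, 1 GC box 37 bases and 1 TATA box 22 bases before the start. The Vcan window held 2 GC boxes, the Bgn window 3 GC boxes with 1 PU.1-type core, and the second Postn start a TATA box 21 bases upstream. Of the windows not printed, that of Tgfbi held 1 GC box, and neither that of Sparc nor the first start of Postn held any of the 4 motifs. Among 32851 mouse windows of the same length, 23.3% held the PU.1-type core, 4.46% AP-1, 12.4% the TATA box and 32.7% the GC box. A match is a run of letters and not a bound site.

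The types moved in opposite directions from 1 to 7 dpi. All 5 myeloid-type genes fell, by a median log2FC of -5.14, and all 5 stromal-type genes rose, by a median log2FC of 4.61, beside a median of 0.16 over all genes tested. In that comparison 14.0% of all genes tested were called lower and 19.7% higher. The 3 libraries of 1 dpi did not overlap those of 7 dpi for any of the 10 genes, which was also the case for 55.9% of all genes. In these bulk samples, fewer cells of a type and less RNA per cell cannot be told apart. The comparison from 1 to 7 dpi shares its libraries with those from 1 to 2 and from 4 to 7 dpi.

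The steps were not taken by the same members in each interval. From 1 to 2 dpi, Vcan and Thbs1 fell (2 of 5, beside 3.97% of all genes called lower), and Lum and Bgn rose (2 of 5, beside 5.09% called higher). The median log2FC was -0.98 in the myeloid type and 0.72 in the stromal type, against 0.01 over all genes. The libraries of 1 and 2 dpi did not overlap for 5 myeloid-type and 3 stromal-type genes, beside 39.4% of all genes. From 2 to 4 dpi, Fn1, Vcan and Thbs1 fell (3 of 5, beside 3.88% called lower), and Postn, Bgn and Dcn rose (3 of 5, beside 8.02% called higher). Medians were -1.92 and 1.42, against 0.04 over all genes, and 4 and 3 genes had libraries that did not overlap, beside 44.2% of all genes. From 4 to 7 dpi, only Tgfbi fell among the myeloid-type genes (1 of 5, beside 5.20% called lower), whereas all 5 stromal-type genes rose (beside 7.44% called higher). Here the medians were -0.82 and 1.47, against -0.03 over all genes. Libraries did not overlap for 2 myeloid-type genes and for all 5 of the stromal type, beside 40.0% of all genes.

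**Figure D1:**
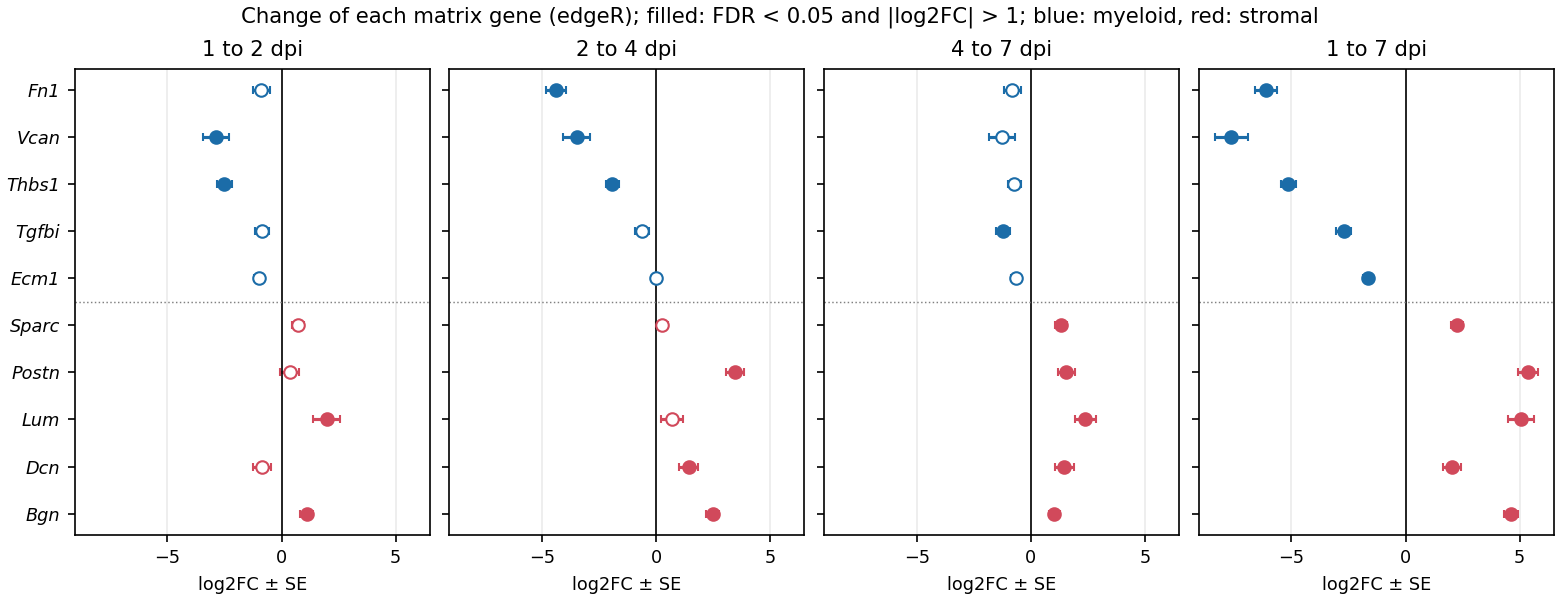
The log2FC of each of the 10 matrix genes, with its standard error as a bar, is plotted for the 4 comparisons between time points (12 libraries, 3 per time point). Filled circles mark genes called by edgeR (adjusted P under 0.05 and absolute log2FC above 1), blue the myeloid type and red the stromal type. From 1 to 7 dpi all blue points lie left of 0 and all red points right of it, and from 4 to 7 dpi Tgfbi is the only filled blue point.

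Fn1 encodes fibronectin, the adhesive glycoprotein of the provisional matrix. Its level was 4974, 7228 and 7865 CPM in the libraries of 1 dpi and 3467, 3275 and 4119 CPM at 2 dpi. It was 302, 84.9 and 127.4 CPM at 4 dpi and 141, 79.5 and 70.1 CPM at 7 dpi. The drop lay between 2 and 4 dpi, where the lowest library went from 3275 to 84.9 CPM and the highest from 4119 to 302 CPM. The log2FC was -4.40 ± 0.43 (SE), with an adjusted P of 8.11e-06 by edgeR, a 21.1-fold lower level. Without replicate 1 of 4 dpi, which stood highest at that time point, the log2FC was -5.09. From 1 to 2 dpi the libraries did not overlap, but the log2FC of -0.89 ± 0.38 did not pass (adjusted P = 0.14 by edgeR). From 4 to 7 dpi the libraries overlapped and the log2FC was -0.82 ± 0.38 (adjusted P = 0.118 by edgeR). With one library left out it ran from -1.20 to -0.15. It was called only without replicate 2 of 4 dpi (-1.16, adjusted P = 0.0299 by edgeR). Over the whole course Fn1 fell 69-fold. The Fn1 locus overlaps Apol7d on the opposite strand in the annotation, and the preparation as described does not mark strand, so reads of such partners cannot be told apart. The same holds for Vcan with Gm16318 and Gm4117 and for Thbs1 with Gm29233, and Ecm1 holds the same-strand Mir7014.

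Vcan encodes versican, a large chondroitin sulfate proteoglycan that binds hyaluronan and that monocytes express at a high level. Libraries of 1 dpi held 1135, 1001 and 791 CPM, and those of 2 dpi 140, 147 and 109 CPM. At 4 dpi the values were 27.3, 1.78 and 5.88 CPM, and at 7 dpi 5.24, 5.30 and 4.27 CPM. Vcan therefore fell in both early intervals, with no overlap between libraries in either. The log2FC was -2.89 ± 0.57 from 1 to 2 dpi (adjusted P = 0.0032) and -3.48 ± 0.60 from 2 to 4 dpi (adjusted P = 0.000781), both by edgeR. The high value of 4 dpi replicate 1 carried weight in what followed. Without that library the log2FC from 2 to 4 dpi was -5.10 and that from 4 to 7 dpi turned from -1.26 to 0.34 (adjusted P = 0.523 by edgeR). Without replicate 2 of 4 dpi, the lowest, the latter was -1.78 and was called (adjusted P = 0.00713 by edgeR), whereas with all libraries it was not (adjusted P = 0.111). From 1 to 7 dpi, Vcan fell 198-fold (log2FC -7.63 ± 0.72, adjusted P = 7.84e-07 by edgeR), and this was the largest change among the 10 genes.

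Thbs1 encodes thrombospondin-1, a matricellular glycoprotein that is also stored in platelets. The libraries of 1 dpi held 12128, 7250 and 5230 CPM, a more than 2-fold spread, and those of 2 dpi lay close together at 1482, 1481 and 1384 CPM. The level was 396, 293 and 461 CPM at 4 dpi and 303, 212 and 184 CPM at 7 dpi. No library of 1 dpi came down to the level of 2 dpi, and none of 2 dpi to that of 4 dpi, whereas libraries of 4 and 7 dpi overlapped. Thbs1 fell by a log2FC of -2.50 ± 0.31 from 1 to 2 dpi (adjusted P = 8.14e-05 by edgeR). It fell again by -1.92 ± 0.30 from 2 to 4 dpi (adjusted P = 0.00037 by edgeR). From 4 to 7 dpi the log2FC was -0.72 ± 0.29 (adjusted P = 0.0785 by edgeR). Platelet markers moved the same way, since the list of 5 summed to between 628 and 2058 CPM at 1 dpi, between 47.4 and 65.4 CPM at 2 dpi and at most 1.51 CPM at 7 dpi. Nearly all of that was Ppbp, and 3 of the 5 markers were at 0 in every library of 1 dpi. The part of platelet RNA in the Thbs1 values was not tested.

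Tgfbi encodes a secreted adhesion protein that is induced by TGF-β and binds collagens and integrins. Its libraries held 3651, 2526 and 2054 CPM at 1 dpi and 1503, 1748 and 1321 CPM at 2 dpi. They held 1230, 832 and 903 CPM at 4 dpi and 285, 307 and 667 CPM at 7 dpi. Tgfbi thus stayed within 3-fold over the first 3 time points, if judged by the means of 2744, 1524 and 989 CPM, and its libraries overlapped in no interval. Only the last step was called, with a log2FC of -1.24 ± 0.31 (adjusted P = 0.0103 by edgeR), although replicate 3 of 7 dpi was above the other two. The earlier log2FC values were -0.85 ± 0.31 (adjusted P = 0.0835) and -0.62 ± 0.31 (adjusted P = 0.17), both by edgeR. Between the first and last days Tgfbi fell 6.53-fold.

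Ecm1 encodes extracellular matrix protein 1, a glycoprotein of connective tissue that macrophages can also secrete. Its level was 540, 547 and 329 CPM at 1 dpi and 246, 225 and 245 CPM at 2 dpi. It was 246, 269 and 201 CPM at 4 dpi and 160, 154 and 140 CPM at 7 dpi. This was the flattest course of the myeloid type, with a plateau between 2 and 4 dpi, where libraries overlapped and the log2FC was 0.00 ± 0.20. The step from 1 to 2 dpi had an adjusted P of 0.00465 by edgeR but a log2FC of -0.98 ± 0.21, just short of the fold limit of the call. It was called with DESeq2 (log2FC -1.02), with other scaling factors (-1.02), and without replicate 3 of 1 dpi (-1.17) or replicate 1 of 2 dpi (-1.01). From 4 to 7 dpi the log2FC of -0.66 ± 0.21 passed the adjusted P (0.0277 by edgeR) and not the fold limit. Over the 4 time points Ecm1 fell 3.12-fold.

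Among the stromal-type genes, Postn encodes periostin, a matricellular protein of fibroblasts that appears in healing tissue. It was at 2.2, 3.12 and 2.31 CPM at 1 dpi and 2.55, 3.78 and 3.55 CPM at 2 dpi. At 4 dpi the libraries held 15.4, 34.4 and 57.3 CPM, and at 7 dpi 98.2, 68.5 and 147 CPM. The first 2 time points overlapped (log2FC 0.35 ± 0.41, adjusted P = 0.635 by edgeR), and both later steps were free of overlap. Postn rose by a log2FC of 3.44 ± 0.40 from 2 to 4 dpi (adjusted P = 3.31e-05 by edgeR), the largest step of any stromal-type gene. It rose by 1.55 ± 0.36 from 4 to 7 dpi (adjusted P = 0.00629 by edgeR), and was 40.6-fold higher at 7 than at 1 dpi.

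Bgn encodes biglycan, a small leucine-rich proteoglycan that binds collagen and can signal through Toll-like receptors. Its libraries held 1.41, 3.94 and 2.49 CPM at 1 dpi and 5.48, 6.27 and 5.81 CPM at 2 dpi. They held 34.5, 28.1 and 35.0 CPM at 4 dpi and 88.8, 52.6 and 57.5 CPM at 7 dpi. Bgn was the only stromal-type gene called in all 3 steps. The log2FC was 1.11 ± 0.29 from 1 to 2 dpi (adjusted P = 0.0176), 2.47 ± 0.28 from 2 to 4 dpi (adjusted P = 2.17e-05) and 1.03 ± 0.26 from 4 to 7 dpi (adjusted P = 0.01), all by edgeR. The first call was lost without replicate 1 of 1 dpi (log2FC 0.87), replicate 3 of 1 dpi (1.07), replicate 2 of 2 dpi (1.07) or replicate 3 of 2 dpi (1.13). The last was lost without replicate 2 of 4 dpi (0.91) or replicate 1 of 7 dpi (0.75). With limma-voom both the first (1.13) and the last (0.99) were lost. The middle step kept its call without any one library, and from 1 to 7 dpi Bgn rose 24.5-fold.

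Dcn encodes decorin, the proteoglycan that limits the width of collagen fibrils and binds TGF-β. It was at 6.29, 18.0 and 4.52 CPM at 1 dpi and 5.18, 7.86 and 3.15 CPM at 2 dpi. It was at 17.1, 11.6 and 14.4 CPM at 4 dpi and 41.1, 46.7 and 31.4 CPM at 7 dpi. Replicate 2 of 1 dpi stood above the other libraries of the first 2 time points, and above all of 4 dpi. Without it, the log2FC from 1 to 2 dpi moved from -0.86 (adjusted P = 0.19 by edgeR) to 0.01, and that from 1 to 7 dpi from 2.03 to 2.95. Dcn rose by a log2FC of 1.42 ± 0.41 from 2 to 4 dpi (adjusted P = 0.0222 by edgeR) and of 1.47 ± 0.40 from 4 to 7 dpi (adjusted P = 0.0146 by edgeR). The first of these calls was lost without replicate 1 of 2 dpi (1.41), replicate 3 of 2 dpi (1.17) or replicate 3 of 4 dpi (1.42), and the other without replicate 2 of 7 dpi (1.35).

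Lum encodes lumican, a keratan sulfate proteoglycan of collagen fibrils, and lies next to Dcn on chromosome 10, with 0 protein-coding genes between them. It was the scarcest of the 10 genes at 1 dpi, with 4, 10 and 2 counts (0.314, 0.410 and 0.0923 CPM). At 2 dpi it had 12, 42 and 22 counts (0.451, 2.09 and 0.788 CPM) and at 4 dpi 46, 38 and 50 counts (1.39, 1.69 and 2.2 CPM). At 7 dpi it reached 342, 330 and 292 counts (9.23, 10.2 and 8.25 CPM), above every library of earlier days. Lum rose by a log2FC of 2.39 ± 0.46 from 4 to 7 dpi (adjusted P = 0.00219 by edgeR). The early rise of 1.98 ± 0.58 from 1 to 2 dpi (adjusted P = 0.0338 by edgeR) rested on few counts. It was not called without replicate 1 of 1 dpi (log2FC 2.06), replicate 3 of 1 dpi (1.54) or replicate 2 of 2 dpi (1.19), nor with limma-voom (1.77), the 6 libraries of those days alone (1.97) or counts halved (1.92). From 2 to 4 dpi the log2FC was 0.69 ± 0.47 (adjusted P = 0.334 by edgeR), and without replicate 2 of 2 dpi it was 1.49 and called (adjusted P = 0.0484). From 1 to 7 dpi the log2FC was 5.06 ± 0.57, and 5.70 without replicate 2 of 1 dpi.

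Sparc encodes osteonectin, a collagen-binding matricellular protein made by fibroblasts, endothelial cells and some macrophages. It was present from the start, at 26.7, 34.9 and 35.2 CPM at 1 dpi and 38.7, 70.0 and 50.8 CPM at 2 dpi. Libraries held 62.7, 40.0 and 85.1 CPM at 4 dpi and 134, 179 and 148 CPM at 7 dpi. The only called step was the last, where Sparc rose by a log2FC of 1.30 ± 0.26 (adjusted P = 0.00293 by edgeR) with no overlap. From 1 to 2 dpi the log2FC was 0.72 ± 0.26 (adjusted P = 0.0821 by edgeR). From 2 to 4 dpi it was 0.24 ± 0.26 with overlapping libraries, and it turned to -0.05 without replicate 3 of 4 dpi.

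**Figure D2:**
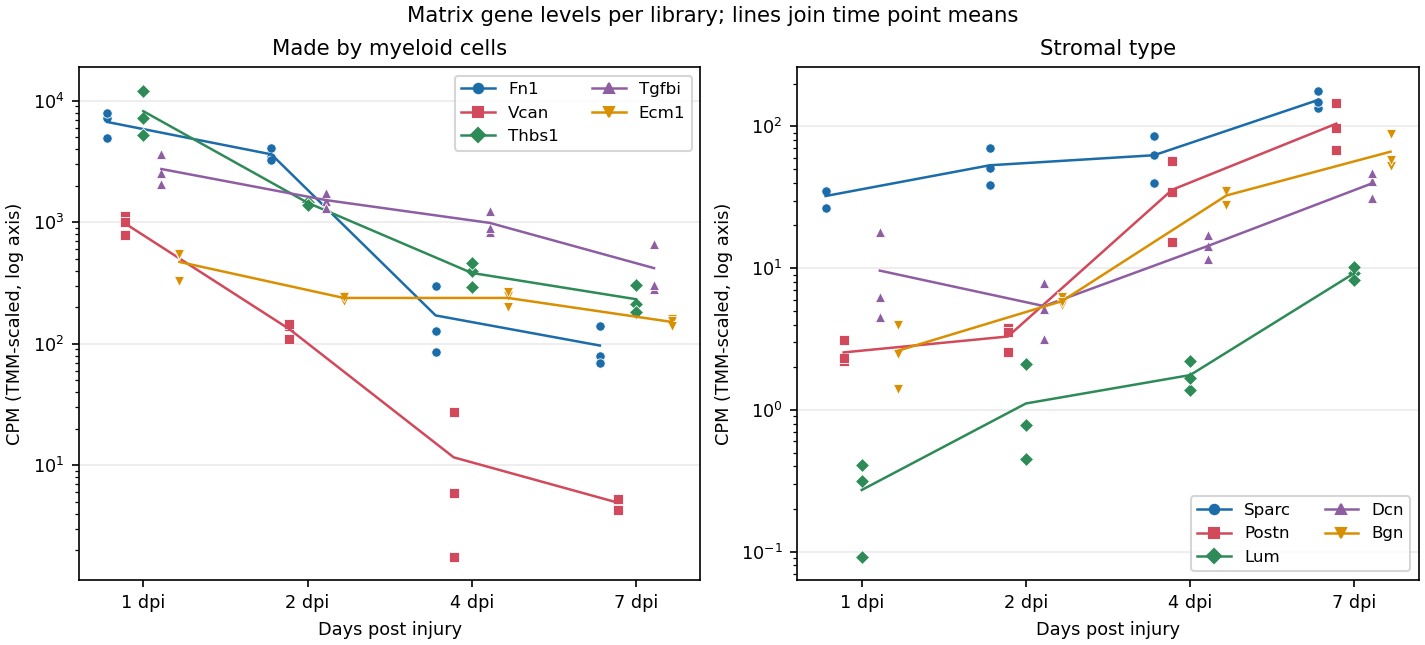
CPM (TMM-scaled, log axis) is plotted against days post injury, with one point per library (3 per time point) and lines through the time point means, for the myeloid type on the left and the stromal type on the right. Vcan went from between 791 and 1135 CPM at 1 dpi to between 4.27 and 5.30 CPM at 7 dpi, and Postn from between 2.2 and 3.12 CPM to between 68.5 and 147 CPM.

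Per kb of exon length, which allows levels to be set side by side between genes, the order of the 10 genes changed. At 1 dpi the 5 myeloid-type genes came first, with means of 1351 CPM per kb for Thbs1, 728 for Tgfbi, 572 for Fn1, 187 for Ecm1 and 67.5 for Vcan. Libraries of Thbs1 and Tgfbi overlapped, as did those of Tgfbi and Fn1. Sparc followed at 8.52 CPM per kb, and Lum was last at 0.111. At 2 dpi Tgfbi led (404 CPM per kb), overlapping with Fn1 (310), and Sparc (14.0) had passed Vcan (9.11) without overlap. That gap was narrow, as the lowest Sparc and the highest Vcan library were both at 10.2 after rounding. At 4 dpi Fn1 (14.7) overlapped with Sparc (16.5), and Vcan (0.805) was beside Lum (0.718), with overlapping libraries. At 7 dpi the order was Tgfbi (111 CPM per kb), Ecm1 (59.9), Sparc (40.6) and Thbs1 (38.3), with only the last pair overlapping. Postn (12.0), Bgn (10.9), Fn1 (8.30) and Dcn (6.80) then formed a run in which each neighbour overlapped the next. Lum (3.76) and Vcan (0.341) came last, without overlap. Tgfbi and Ecm1 therefore stayed above every stromal-type gene on this scale throughout, whereas Vcan ended under all of them. Exon lengths came from the GRCm38 annotation and stand in for the lengths behind the counts.

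Summed over its 5 genes, the myeloid type went from between 16268 and 22428 CPM at 1 dpi to between 6837 and 7177 CPM at 2 dpi and between 1481 and 2200 CPM at 4 dpi. It ended between 758 and 1064 CPM at 7 dpi. The stromal type went from between 36.9 and 60.4 CPM to between 52.4 and 90.0, between 116 and 194 and between 357 and 392 CPM. The ratio of their counts was 607, 307 and 365 at 1 dpi, 131, 76.4 and 112 at 2 dpi, 16.8, 12.8 and 8.76 at 4 dpi and 2.41, 2.12 and 2.71 at 7 dpi. The time points did not overlap in this ratio. At 7 dpi the myeloid type still made up the larger part in every library.

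Markers of other cells moved as well, though not all in the same intervals. The 4 monocyte markers (Ly6c2, Ccr2, Plac8 and Chil3) summed to between 2371 and 3634 CPM at 1 dpi, between 629 and 755 at 2 dpi, between 351 and 435 at 4 dpi and between 154 and 266 at 7 dpi. All 4 fell from 1 to 7 dpi (beside 14.0% of all genes called lower). Chil3 and Ccr2 made up most of the sum, with means of 1839 and 980 CPM at 1 dpi. From 2 to 4 dpi only Chil3 was called lower, and the list had a median log2FC of -0.07. The means of Ly6c2 (20.6 to 33.1 CPM) and Plac8 (14.6 to 17.7 CPM) went up in that interval. Their libraries overlapped, and neither was called (adjusted P = 0.493 and 0.663 by edgeR). In the library of 4 dpi in which Fn1 and Vcan stood highest, replicate 1, the monocyte markers summed to 435 CPM, against 359 and 351 CPM in the other two. The sum of the 7 neutrophil markers moved the same way, at 64.2, 27.7 and 16.7 CPM at 1 dpi and between 3.46 and 6.87 CPM at 2 dpi. It was at most 1.27 CPM at 4 dpi and at most 0.17 CPM at 7 dpi. Most of it was S100a8 and S100a9, with means of 22 and 10.6 CPM at 1 dpi. Camp was at 0 in every library, and Ly6g, Ngp and Ltf reached at most 0.786 CPM. S100a8 and S100a9, the only 2 markers of this list that passed the filter, fell from 1 to 2 dpi (beside 3.97% of all genes called lower). The 8 fibroblast markers (Pdgfra, Col1a1, Col1a2, Col3a1, Dpt, Pi16, Mfap5 and Clec3b) summed to between 14.9 and 41.7 CPM at 1 dpi, between 24.4 and 37.5 at 2 dpi, between 124 and 245 at 4 dpi and between 378 and 802 at 7 dpi. Of the 8, 5 rose from 1 to 7 dpi (62.5%, beside 19.7% of all genes called higher). Pdgfra, the receptor that defines fibro-adipogenic progenitors, lay between 0.6 and 3.3 CPM in all libraries and was called in no comparison. Replicate 2 of 1 dpi, where Dcn stood high, had the highest fibroblast marker sum of that day (41.7 CPM). Mural cell markers summed to between 18.4 and 20.6 CPM at 1 dpi and between 56.4 and 97.4 CPM at 7 dpi, endothelial markers to between 27.1 and 36.5 and between 38.6 and 93.1 CPM, and muscle fibre markers to between 4.34 and 12.7 and between 30.2 and 80.1 CPM. Tenocyte markers went from between 0.472 and 2.63 CPM to between 9.12 and 21.0 CPM, and satellite cell markers from at most 0.369 CPM to between 2.96 and 3.72 CPM. From 2 to 4 dpi, 0 of 5 tested mural, 0 of 7 endothelial and 0 of 5 muscle fibre markers were called higher (beside 8.02% of all genes). Their median log2FC values were -0.35, -0.48 and -0.28. In that interval 1 of 3 tested tenocyte and 2 of 4 satellite cell markers were called higher. Endothelial sums of 2 dpi (27.6 to 49.6 CPM) overlapped those of 7 dpi. None of the 8 fibroblast markers was at 0 in all 3 libraries of a time point. The part of RNA from these cells in the stromal-type values, and of monocytes and neutrophils in the myeloid-type values, was not tested.

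**Figure D3:**
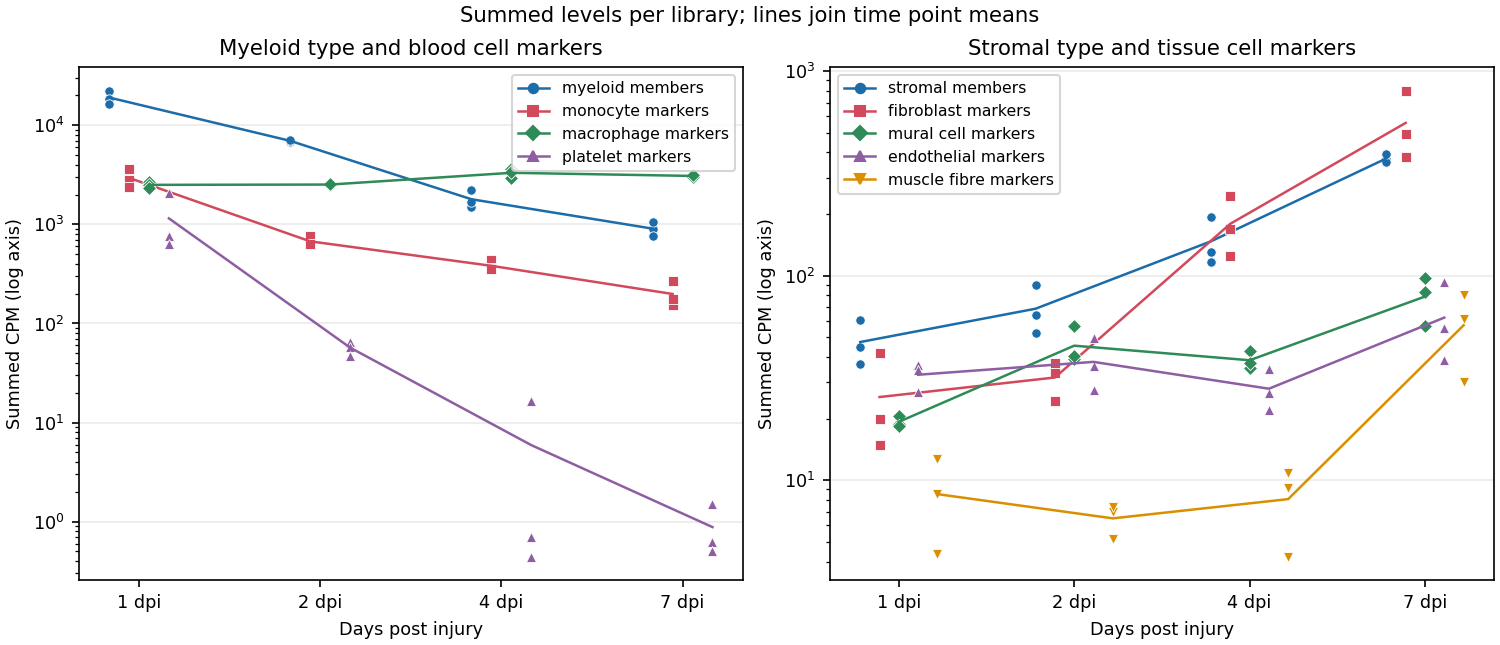
Summed CPM (log axis) per library is plotted against days post injury, with lines through the means of 3 libraries, for the myeloid type with monocyte, macrophage and platelet markers on the left and the stromal type with tissue cell markers on the right. The macrophage markers stay between 2349 and 3603 CPM while the myeloid type comes down to between 758 and 1064 CPM, and the fibroblast markers reach between 378 and 802 CPM beside 357 to 392 CPM for the stromal type.

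The stromal-type genes did not keep a fixed proportion to the summed fibroblast markers. At 7 dpi that sum was mostly Col1a1, Col1a2 and Col3a1 (means of 221, 157 and 156 CPM), followed by Dpt (7.72 CPM). At 1 dpi these collagen genes had means of 6.12, 4.47 and 5.49 CPM. Between those days Pi16 went from 6.36 to 4.80 CPM and Pdgfra from 1.77 to 2.63 CPM. The ratio of the summed counts of the stromal-type genes to those of the 8 markers was 2.49, 1.45 and 2.25 at 1 dpi and 2.15, 2.40 and 1.93 at 2 dpi. It was 0.778, 0.933 and 0.791 at 4 dpi and 0.463, 0.946 and 0.797 at 7 dpi, so that the first 2 time points lay above the last 2 without overlap. Sparc accounted for most of this, with ratios of 1.80, 0.836 and 1.78 at 1 dpi against 0.167, 0.475 and 0.300 at 7 dpi. For Dcn they were 0.423, 0.432 and 0.228 at 1 dpi and 0.0512, 0.124 and 0.0638 at 7 dpi, again without overlap. For Bgn the ratio lay between 0.143 and 0.226 at 2 and 4 dpi, above every library of 1 and 7 dpi. It was 0.0952, 0.0944 and 0.126 at 1 dpi and 0.111, 0.139 and 0.117 at 7 dpi, and these overlapped. Postn (between 0.0747 and 0.148 at 1 dpi, between 0.122 and 0.299 at 7 dpi) and Lum (between 0.00466 and 0.0212, and between 0.0115 and 0.0269) overlapped as well. These ratios are descriptions without a test.

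**Figure D4:**
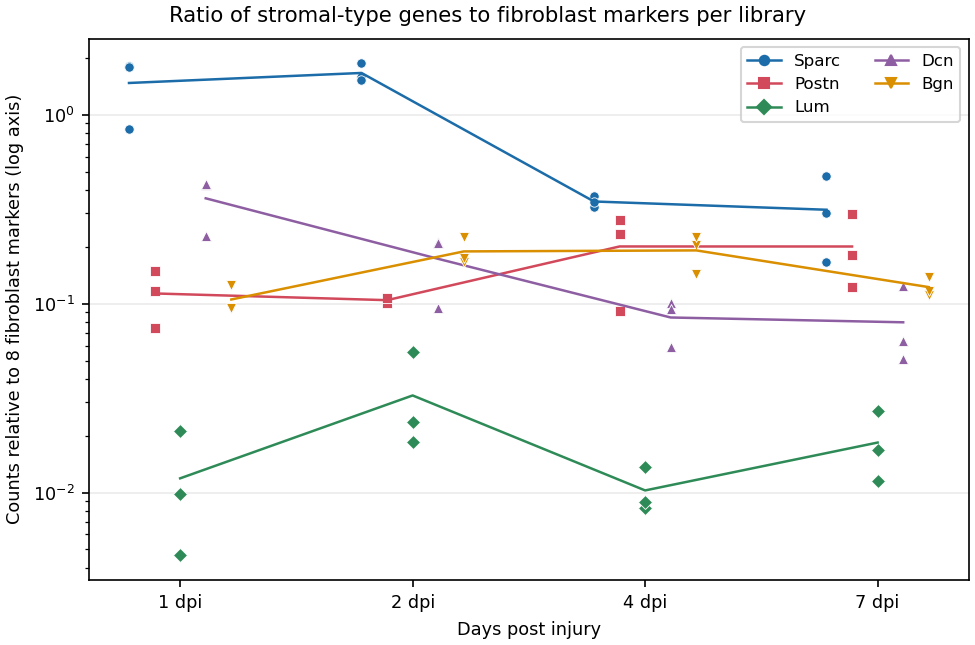
Counts of each stromal-type gene relative to the summed counts of 8 fibroblast markers (log axis) are plotted by library and days post injury, with lines through the means of 3 libraries. Sparc and Dcn lie lower at 7 dpi than at 1 dpi in every library, while Bgn, Postn and Lum overlap between those days. Bgn lies higher at 2 and 4 dpi than on either of those days.

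Likeness between courses was measured as the root mean square difference of centred log2 CPM over the 12 libraries, where 0 is the same course. It was between 0.64 and 2.78 (median 1.46) for the 10 pairs within the myeloid type and between 0.74 and 1.60 (median 1.09) for the 10 pairs within the stromal type. The 25 pairs across the types lay between 1.44 and 5.40 (median 3.46). The courses nearest to Fn1 among all genes tested were those of the monocyte chemokines Ccl7 (0.51) and Ccl2 (0.51) and of Nt5e (0.66), the gene of CD73. For Vcan they were Ltb4r1 (0.69), Trem1 (0.70) and Cxcr2 (0.73), all receptors of myeloid cells, and for Thbs1 Ptgs2 (0.46), which encodes cyclooxygenase-2, and the chemokines Ccl9 (0.46) and Ccl6 (0.52). Tgfbi was nearest to Emb (0.23), the glycolytic gene Tpi1 (0.28) and Sec61b (0.29), and Ecm1 to Rps27 (0.18), Nipa2 (0.22) and Myd88 (0.23). Nearest to Bgn were the fibrillar collagen genes Col1a2 (0.39) and Col3a1 (0.42), both fibroblast markers, followed by Cxcr3 (0.43). Postn was nearest to Cthrc1 (0.41), a gene of matrix-producing fibroblasts, C1qtnf3 (0.43) and Mycl (0.45), and Lum to Antxr1 (0.58), Itm2a (0.58) and Col15a1 (0.66). Sparc was nearest to Itpr2 (0.29), the laminin gene Lamb1 (0.31) and Wwtr1 (0.33), and Dcn to Mylf-ps (0.41), D330023K18Rik (0.42) and Ebf1 (0.44).

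Other genes of the matrix were taken from lists that leave the 10 genes out. Of 42 tested matrix glycoprotein genes, 3 rose (7.14%, near the 5.09% of all genes called higher) and 0 fell (0.00%, beside 3.97% called lower) by edgeR from 1 to 2 dpi. From 2 to 4 dpi 11 rose (26.2%, beside 8.02%) and 2 fell (4.76%, beside 3.88%), and from 4 to 7 dpi 13 rose (31.0%, beside 7.44%) and 2 fell (4.76%, beside 5.20%). From 1 to 7 dpi, 28 rose (66.7%, beside 19.7%) and 4 fell (9.52%, beside 14.0%), with a median log2FC of 2.40 beside 0.16 over all genes. Within the thrombospondin family of Thbs1, Thbs2 rose from 2 to 4 dpi (log2FC 2.17 ± 0.47, adjusted P = 0.00405 by edgeR) and Thbs4 from 4 to 7 dpi (2.15 ± 0.34, adjusted P = 0.000805 by edgeR). Thbs3 was tested and was called in no comparison. Thbs2 had 0.751, 1.39 and 1.43 CPM at 2 dpi and 4.42, 2.71 and 9 CPM at 4 dpi. Like the myeloid type, Emilin2, an elastin interface protein, fell from 2 to 4 dpi (-1.62 ± 0.26, adjusted P = 0.000509 by edgeR). Spp1, which encodes osteopontin, a matrix protein that macrophages secrete, fell from 4 to 7 dpi (-2.05 ± 0.58, adjusted P = 0.0182 by edgeR), from 4155, 1606 and 2324 CPM to 684, 105 and 1169 CPM. That call was lost without replicate 1 of 4 dpi (-1.60) or replicate 1 of 7 dpi (-2.08), and with the 6 libraries of those days alone (-1.99). Spp1 had been at 1028, 1888 and 2599 CPM at 1 dpi and at 4879, 5108 and 7062 CPM at 2 dpi, without overlap, whereas Fn1 was already lower at 2 dpi in every library. The log2FC of Spp1 for that step, 1.63 ± 0.57, did not pass (adjusted P = 0.074 by edgeR) but was called without replicate 2 of 7 dpi (adjusted P = 0.00681). It was also called without a filter on low counts (log2FC 1.64) and with the 6 libraries of 1 and 2 dpi alone (1.60). With one library left out, the glycoprotein genes called higher ran from 1 to 5 from 1 to 2 dpi, and from 6 to 11 from 2 to 4 dpi, lowest without replicate 1 of 2 dpi or replicate 3 of 4 dpi.

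Of 19 proteoglycan genes 12 were tested, and 7 rose (58.3%, beside 19.7% of all genes) and 1 fell (8.33%, beside 14.0%) from 1 to 7 dpi, with a median log2FC of 2.58 beside 0.16. The gene that fell was Srgn, which encodes serglycin, the granule proteoglycan of blood cells. It went from 1545, 981 and 1100 CPM at 1 dpi to 296, 297 and 294 CPM at 2 dpi (log2FC -2.03 ± 0.21, adjusted P = 2.9e-05 by edgeR) and 139, 125 and 107 CPM at 4 dpi. Its steps fell in the same intervals as those of Vcan and Thbs1. Aspn, which encodes asporin, a close relative of decorin and biglycan, rose in all 3 intervals (log2FC 2.04, 1.58 and 1.09). Its libraries held 0.472, 0.410 and 0.369 CPM at 1 dpi and 9.15, 9.18 and 14.2 CPM at 7 dpi. From 1 to 2 dpi 3 of the 12 rose and 1 fell, from 2 to 4 dpi 2 rose and 1 fell, and from 4 to 7 dpi 5 rose and 0 fell by edgeR. These are 25%, 16.7% and 41.7% higher, beside 5.09%, 8.02% and 7.44% of all genes. The shares lower were 8.33%, 8.33% and 0.00%, beside 3.97%, 3.88% and 5.20%. Medians were 0.02, 0.56 and 0.84 beside 0.01, 0.04 and -0.03. The count of 5 higher from 4 to 7 dpi dropped, to as few as 1, without replicate 2 or 3 of 4 dpi or replicate 2 of 7 dpi. The last rise of Aspn missed the fold limit without replicate 2 of 4 dpi (0.97) or replicate 3 of 7 dpi (0.85).

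Receptors for these matrix proteins were called in both directions. Of 20 tested, 5 rose (25%, beside 19.7% of all genes) and 6 fell (30.0%, beside 14.0%) from 1 to 7 dpi, with a median log2FC of 0.23 beside 0.16. By step, 1 rose and 2 fell from 1 to 2 dpi, 3 rose and 0 fell from 2 to 4 dpi, and 0 rose and 1 fell from 4 to 7 dpi by edgeR, with medians of 0.13, -0.03 and -0.08. The shares were 5.00%, 15% and 0.00% higher and 10.0%, 0.00% and 5.00% lower, beside 5.09%, 8.02% and 7.44% and 3.97%, 3.88% and 5.20% of all genes. Itga9, an integrin chain that binds osteopontin and tenascin, rose from 2 to 4 dpi (log2FC 2.13 ± 0.24, adjusted P = 2.74e-05 by edgeR). Cd36, a receptor of thrombospondin-1, held 903, 856 and 764 CPM at 4 dpi and 148, 209 and 266 CPM at 7 dpi, and it fell in that interval (-2.02 ± 0.27, adjusted P = 0.000379 by edgeR). Cd44, a receptor of hyaluronan, which versican binds, fell from 1 to 7 dpi (-1.48 ± 0.21, adjusted P = 3.57e-05 by edgeR). Tlr2 and Tlr4, through which biglycan can signal, fell from 1 to 2 dpi (-1.24 ± 0.24 and -1.12 ± 0.20), Tlr4 by only -0.81 and short of the fold limit without replicate 1 of 1 dpi. Of 19 tested genes for enzymes that process the matrix, 1 rose and 2 fell from 1 to 2 dpi, 2 rose and 1 fell from 2 to 4 dpi and 2 rose and 2 fell from 4 to 7 dpi. Each of these is 5.26% or 10.5% of the list, beside shares of all genes between 3.88% and 8.02%. From 1 to 7 dpi 7 rose (36.8%, beside 19.7%) and 3 fell (15.8%, beside 14.0%), with a median log2FC of 0.56 beside 0.16. Chst11, which sulfates chondroitin such as that carried by versican, fell in the first 2 intervals (-1.30 ± 0.37 and -1.70 ± 0.38, adjusted P = 0.0286 and 0.00502 by edgeR). The first of these calls was lost whichever of the 6 libraries of 1 and 2 dpi was left out (-1.35 to -1.25). Pcolce, an enhancer of procollagen processing, rose from 2 to 4 dpi (1.69 ± 0.39, adjusted P = 0.00664 by edgeR). With one library left out, the enzymes called lower from 1 to 2 dpi ran from 0 to 3.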

How the data were processed

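Per the labels and the paper's methods, RNA was converted to cDNA by a Smart-seq2/3 protocol and sequenced as paired reads. The submitters' processing notes name Trim Galore 0.6.6, HISAT2 2.2.1, Subread 2.0.1 and edgeR, and the GRCm39 build. The authors deposited raw counts per gene ID for 12 libraries, not normalized. A median of 83.1% of the counts from 1 to 20 in a library were even numbers, and whether both mates of a pair were counted was not tested. Counts were filtered (filterByExpr), scaled by TMM and fitted over all 12 libraries with edgeR 4.0.16 (R 4.3.3), with Benjamini-Hochberg adjustment over 14310 genes. The standard error (SE) of a log2FC was its absolute value divided by the square root of the F statistic of edgeR's test. The scripts were tested on simulated data. Symbols came from a reference table and matched 52081 of 55414 IDs, and overlaps and exon lengths came from the GRCm38 annotation. Likeness used log2 CPM with a prior count of 2.

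Named were the 10 members, the 3 nearest genes to each, and genes from each list among the 3 smallest P values per direction and comparison. Thbs2, Thbs3 and the early course of Spp1 were added after their values had been seen. Members and lists were chosen with earlier results of these data known. Alternatives were RLE factors, other filters, DESeq2 1.42.0, limma-voom (limma 3.58.1), fits on 6 libraries, a replicate block, counts halved, the top gene left out, no fold limit, and each library left out. One marker of a list is not reported here.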

Additional observations from a re-analysis of the deposited data

How the results depend on the processing

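From 1 to 2 dpi the stromal genes called higher were 2, but 0 with limma-voom, 1 with the 6 libraries alone and 1 with counts halved. From 4 to 7 dpi the myeloid genes called lower were 1, but 2 without a filter and 2 without the fold limit. With one library left out, the myeloid and stromal counts ranged from 2 to 3 and 0 to 2 (1 to 2 dpi), 3 to 3 and 2 to 4 (2 to 4 dpi), 1 to 3 and 4 to 5 (4 to 7 dpi), and 5 to 5 for both (1 to 7 dpi). Over 880 values for the members, 831 kept direction and call, 18 lost the call, 12 gained it and 19 changed sign, none of a called change. The sign changes were Dcn from 1 to 2 dpi (0.01 without 1 dpi replicate 2, range -1.21 to 0.01 with a library left out), Sparc from 2 to 4 dpi (-0.05 without 4 dpi replicate 3, range -0.05 to 0.48), Vcan from 4 to 7 dpi (0.34 without 4 dpi replicate 1, range -1.78 to 0.34) and Ecm1 from 2 to 4 dpi around its 0.00 (0.03 with RLE, DESeq2, 6 libraries or counts halved, 0.02 with CPM above 1, 0.00 without a filter or the top gene, and -0.10 to 0.11 with a library left out).

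Same-numbered libraries deviated together in 1 of 18 pairs (correlation over 0.1, range -0.13 to 0.13, median 0.03). Pairs of other numbers did so in 3 of 36 (range -0.22 to 0.27, median 0), so the numbers were not taken as a pairing. A replicate block left the member counts at 2 and 2, 3 and 3, 1 and 5, and 5 and 5, changed no member's call, and gave 703 higher and 553 lower genes from 1 to 2 dpi (729 and 568 without it). All genes called changed by over 1.5 times with limma-voom (1 to 2 dpi higher, 479 against 729), the 6 libraries (4 to 7 dpi lower, 470 against 744) and no fold limit (lower: 1245 against 555 from 2 to 4, 2090 against 744 from 4 to 7, 3330 against 2009 from 1 to 7 dpi). With a library left out, such counts ran from 352 to 376 for 568 lower (1 to 2 dpi, without 2 dpi replicate 3 or 2), 327 to 972 for 555 lower (2 to 4 dpi, without 4 dpi replicate 2 or 1), 567 to 674 for 1064 higher (4 to 7 dpi, without 7 dpi replicate 2 or 4 dpi replicate 1) and 442 to 1290 for 744 lower (4 to 7 dpi, without 7 dpi replicate 2 or 3). Leaving out the top gene raised the summed CPM of both types and of the fibroblast, monocyte and macrophage markers 1.70-fold to 1.82-fold at every time point. RLE factors moved the median log2FC of all genes from 1 to 7 dpi from 0.16 to 0.24. Among 1056 counts for the other lists, 65 moved by over 1.5 times, and among 374 values for named genes of those lists 13 lost and 3 gained the call and 0 changed sign. The causes were not tested. Depth limits Lum at 1 dpi, where a library held from 2 to 10 counts.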
